A study of Homo sapiens with 6 samples.

Results

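The 10 genes described here, listed by name as methyltransferases outside the METTL3 complex, were followed across every library of K562 cells in which METTL3 or METTL14 had been knocked down. They were METTL1, METTL4, METTL5, METTL8, METTL9, METTL15, METTL17, ZCCHC4, PCIF1 and TRMT112, taken from the read count table by the Ensembl identifier of each symbol, which gave 10 of 61661 identifiers. The rule used no measured value, but the genes were chosen with earlier results of these data known. K562 is an established human leukemia line with erythroid features, grown from a pleural effusion. There were 3 groups of 2 libraries each: shCTR, shMETTL3 and shMETTL14. All 3 were K562 cells and are named by their short hairpin RNA (shRNA). The study describes stable lines made with a lentivirus that also carries GFP and a puromycin resistance gene, with a nonsense insert in shCTR, whereas the hairpin used in shMETTL14 is not described there. Nothing in the labels says that the libraries of a group came from separate cultures, so each p-value measures only the spread between these libraries, which may be technical.

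METTL3 and METTL14 form the enzyme that places N6-methyladenosine (m6A) inside messenger RNA, with METTL3 as the catalytic subunit. The genes described here lie outside that enzyme and mostly act on other RNAs. METTL5 and ZCCHC4 each place an m6A mark on ribosomal RNA, METTL5 in the small subunit and ZCCHC4 in the large subunit. TRMT112 has no catalytic activity of its own and binds and activates METTL5 and several other methyltransferases. METTL8 methylates mitochondrial transfer RNAs, METTL15 methylates the small ribosomal RNA of mitochondria, and METTL17 helps assemble the small subunit of the mitochondrial ribosome. METTL1 makes 7-methylguanosine in transfer RNA together with WDR4, METTL4 methylates an adenosine of the U2 spliceosomal RNA, and PCIF1 methylates the adenosine next to the mRNA cap. The name RNA methyltransferase does not hold for METTL9, which methylates histidines of proteins.

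Sequence is shown for the hairpin against METTL3, because a hairpin can also act on transcripts that match its seed, and for the stretch in front of METTL5, the gene with the smallest adjusted p against shCTR among the 10. In the hairpin stem, as listed by the study, capitals mark the 7 bases of the target strand that face bases 2 to 8 of the guide.
METTL3 shRNA stem: gccaaggaacaatCCATTGTt
All 21 bases of the stem were found in a METTL3 transcript. Among the 10 genes, only METTL8 had a transcript with the CCATTGT match, at 1 position, and such a match was present in 26.4% of 19664 protein-coding genes. The longest exact run shared between the stem and any transcript of the 10 genes was 7 to 9 bases.
The stretch in front of METTL5 is the 150 bases before its outermost annotated start, on the minus strand of chr2:169824932-169825081 (RefSeq sequence, GRCh38.p14), with the letters GGGCGG, the core of an SP1 motif, in capitals.
METTL5 upstream: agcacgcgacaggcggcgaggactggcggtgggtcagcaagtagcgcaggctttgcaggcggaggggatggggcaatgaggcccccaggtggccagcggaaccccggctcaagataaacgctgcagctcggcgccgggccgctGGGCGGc
GC content was 71.3% in this stretch. Over the 250 bases before the RefSeq start it was 67.2%, against a median of 58.0% over 35116 such windows. GGGCGG was found on either strand in 42.6% of all windows, and the METTL5 window held no match on either strand to the ETS letters CCGGAAG (8.52% of windows), the NRF1 letters GCATGCGC (2.63%), the YY1 letters AAGATGGCG (0.652%), the NFY letters CCAAT (32.0%) or the cyclic AMP response element TGACGTCA (1.65%). Of the 4 sets of letters found in under 10% of windows, the METTL4 window held the cyclic AMP response element, and the PCIF1 window held the YY1 letters once and the NRF1 letters at 2 positions. The ETS letters were found in both windows of TRMT112 and in 1 of the windows of METTL9. Windows were at hand for 8 of the 10 genes, all but METTL1 and METTL17.

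Totals of the libraries lay between 19292574 and 20115304 assigned reads. The knockdowns were visible in their targets. METTL3 was at 90.5 and 90.2 CPM (counts scaled to the library total, with the TMM method of edgeR) in shCTR, 52.5 and 46.7 in shMETTL3 and 88.1 and 76.4 in shMETTL14. METTL14 was at 33.2 and 34.2 CPM in shCTR, 19.1 and 20.6 in shMETTL14 and 38.3 and 35.4 in shMETTL3. METTL3 fell by 0.87 on the log2 scale in shMETTL3 (SE 0.0783, adjusted p = 3.44e-07) and METTL14 fell by 0.76 in shMETTL14 (SE 0.0886, adjusted p = 1.41e-05). These and all other adjusted p-values come from the quasi-likelihood test of edgeR, adjusted by Benjamini-Hochberg over 17686 genes, unless another test is named, and a gene is said to have passed below 0.05. Of the K562 markers, GATA1 had 4942 to 6032 reads, TAL1 2414 to 2728 and TFRC 14600 to 17675, while HBG2 had 125 to 138 and HBG1 only 10 to 22. How reads that match both of the near-identical HBG1 and HBG2 were counted is not given, so these counts may not reflect their level. HBE1 had 3904 and 4214 reads in shCTR, 7485 and 8685 in shMETTL3 and 5413 and 5456 in shMETTL14, and rose in both knockdowns (log2 fold change 0.96, adjusted p = 1.64e-08, and 0.41, adjusted p = 8.14e-04). These 6 markers summed to 1420 to 1461 CPM of the library total in shCTR, 1643 in both shMETTL3 libraries and 1427 to 1430 in shMETTL14. Of 5 markers of other cell types, CD3E, CD14 and PECAM1 had at most 4 reads, and EPCAM, at 728 to 1083 reads, gave most of a sum that was 55.8 to 56.97 CPM in shCTR, 43.2 to 43.95 in shMETTL3 and 44.5 to 45.6 in shMETTL14. EPCAM fell in both knockdowns (-0.57, adjusted p = 2.12e-05, and -0.40, adjusted p = 0.00130), whereas COL1A1, at 42 to 112 reads, rose in shMETTL3 (1.11, adjusted p = 9.30e-04). The part of these shifts in the results below was not tested. In RNA from whole cultures, fewer cells of a type and less RNA per cell cannot be told apart.

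All 10 genes were transcribed in every library, from 175 reads for METTL1 to 2719 for TRMT112, and all 10 passed the filter on low counts. Per kilobase of the longest coding transcript, TRMT112 was the highest in shCTR at 112 ± 9.58 CPM per kb (SD, n = 2), followed by METTL5 at 70.9 ± 0.287. METTL9 was at 32.7 ± 0.462 CPM per kb, METTL17 at 26.5 ± 1.11 and PCIF1 at 19.8 ± 1.53. METTL4, at 11.2 ± 0.748, and METTL15, at 10.7 ± 0.478 CPM per kb, were not separated by more than their spread. ZCCHC4 followed at 7.12 ± 0.898 CPM per kb, METTL1 at 4.89 ± 0.0216 and METTL8 last at 3.77 ± 0.363. Divided by the length of all exons merged, PCIF1 moved from rank 5 to rank 3, ahead of METTL9 and METTL17. Among all genes tested, the mean CPM of the 10 genes ranged from percentile 43.6 for METTL1 to percentile 90.3 for TRMT112.

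**Figure D1:**
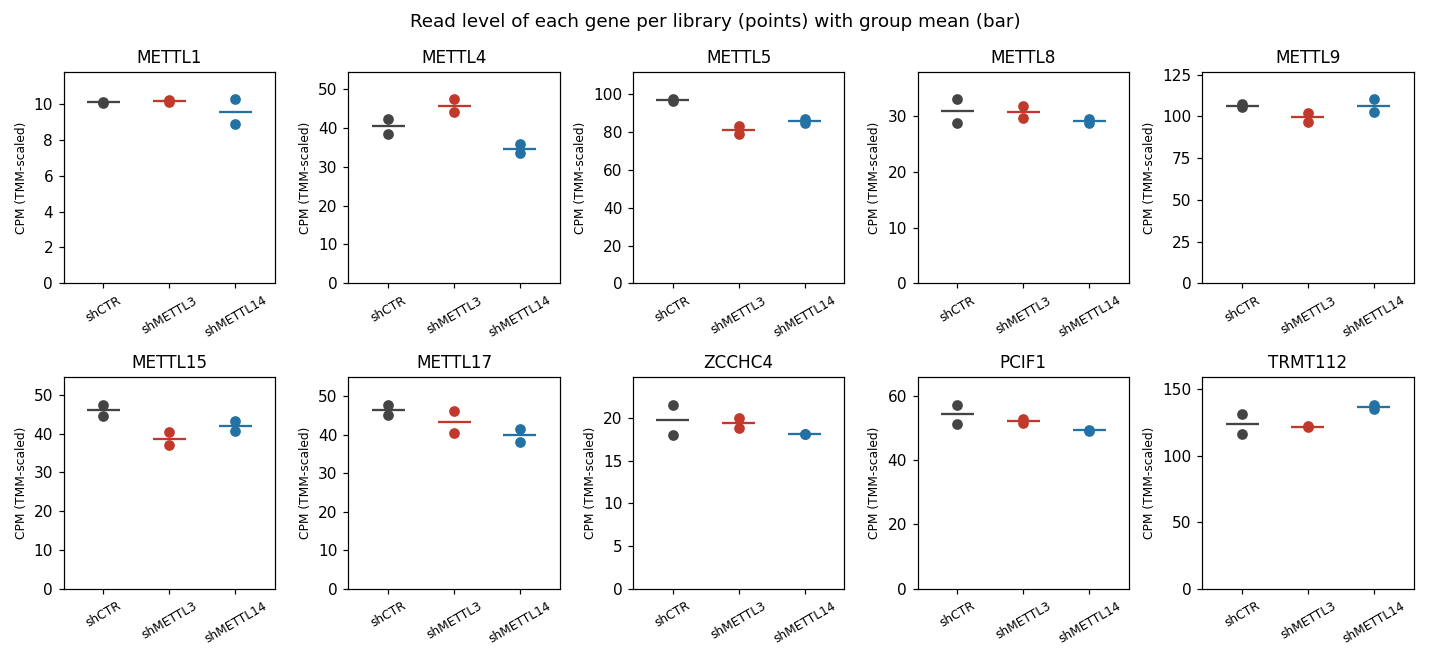
CPM (vertical axes, TMM-scaled, from 0) of each of the 10 genes in the 2 libraries of shCTR, shMETTL3 and shMETTL14 (points), with the mean of each group as a bar. METTL5 sits near 97 CPM in both shCTR libraries and below 90 in the other 4, and METTL4 is highest in shMETTL3 and lowest in shMETTL14.

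Against shCTR, 2 of the 10 genes passed in shMETTL3, METTL5 and METTL15, both lower, and 0 were higher. Of all genes tested, 16.5% passed in this comparison, and 7.73% passed as lower. Among the 8259 genes with a mean level within the range of the 10, 19.3% passed. In shMETTL14 against shCTR, 0 of the 10 passed by edgeR, against 6.69% of all genes, and 0 by DESeq2, against 763 of 17686 genes. An unadjusted p under 0.05 by edgeR was found there for 3 of the 10, against 3665 of 17686 genes. Between the knockdowns, 1 of the 10 passed, METTL4, which was higher in shMETTL3, against 12.1% of all genes that passed and 6.65% that passed as higher. The 2 comparisons with shCTR use the same control libraries. The median log2 fold change of the 10 genes was -0.04 in shMETTL3 and -0.13 in shMETTL14, with 8 of 10 below 0 in each, whereas the median over all genes was 0.00 in both. Their median absolute log2 fold change was 0.079 in shMETTL3, against 0.176 over all genes, and 0.135 in shMETTL14, against 0.141. The medians over all genes were not matched for level. The largest difference against shCTR among the 10 was the -0.26 of METTL5. Of the genes that passed, 53.0% were higher in shMETTL3, 51.3% in shMETTL14 and 54.8% in shMETTL3 against shMETTL14, and with library size alone as the scale these shares were 71.6%, 62.6% and 65.0%.

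**Figure D2:**
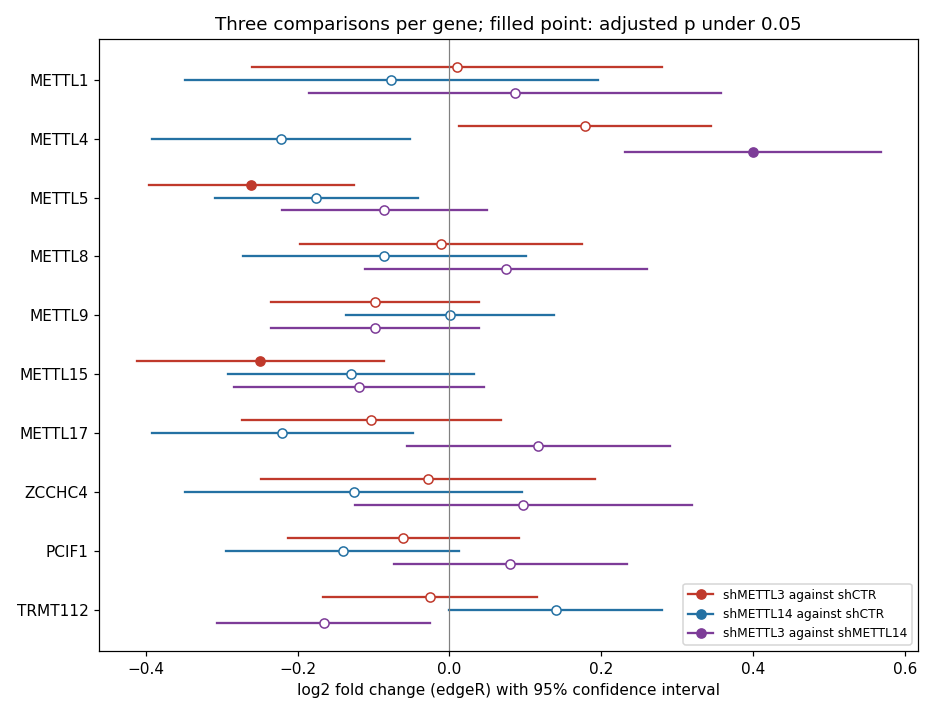
log2 fold change (horizontal axis) of each gene in shMETTL3 against shCTR (red), shMETTL14 against shCTR (blue) and shMETTL3 against shMETTL14 (purple), with 95% confidence intervals as lines and filled points for an adjusted p under 0.05. Filled points are METTL5 and METTL15 in red, at -0.26 and -0.25, and METTL4 in purple, at 0.40.

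METTL5 (ENSG00000138382, chr2:169810081-169824931, minus strand, GRCh38, as are all coordinates below) was at 96.8 and 97.4 CPM in shCTR, 79.0 and 83.1 in shMETTL3 and 84.99 and 86.97 in shMETTL14. Both shCTR libraries lay above the other 4, and no shMETTL3 library reached the level of a shMETTL14 library. METTL5 fell by 0.26 on the log2 scale in shMETTL3 (SE 0.0644, 95% interval -0.40 to -0.13, adjusted p = 0.00863), a decrease of 16.5%. In shMETTL14 the log2 fold change was -0.18 (SE 0.0642, 95% interval -0.31 to -0.04, adjusted p = 0.115), which did not pass. The knockdowns differed by -0.09 (SE 0.0648, adjusted p = 0.456), so that no difference between the knockdowns was shown. The call in shMETTL3 was lost without shMETTL3 replicate 1 (log2 fold change -0.22, adjusted p = 0.121) and without replicate 2 (-0.30, adjusted p = 0.0506). Of the merged METTL5 exons, 572 bases or 19.97% overlap exons of SSB, the La protein gene on the opposite strand. SSB had 7084 and 6213 reads in shCTR, 5774 and 5561 in shMETTL3 and 6027 and 5757 in shMETTL14, with both knockdowns below shCTR and overlapping each other. The strand setting of the counting is not given in the sources used here, so reads in the shared stretch cannot be told apart.

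Fold changes over all genes moved with base composition. Genes with AT-rich transcripts were lower and genes with GC-rich transcripts higher in both knockdowns: in shMETTL3 the median log2 fold change went from -0.08 in the GC decile with the lowest content to 0.15 in the highest decile, and in shMETTL14 from -0.05 to 0.09. The METTL5 transcript has a GC content of 40.1%, that of METTL15 39.2%, that of METTL4 38.3% and that of PCIF1 60.3%. With a smooth trend on GC content and length removed from each library, METTL5 in shMETTL3 was at -0.12 (SE 0.0544, adjusted p = 0.140) and no longer passed. The median of its GC decile went from -0.07 to 0.01, a smaller move than that of METTL5. GC content and length were removed together, and their separate parts were not tested. METTL15 was then at -0.17 (SE 0.0657, adjusted p = 0.0740) and did not pass either. METTL4 rose by 0.27 in shMETTL3 under this setting (SE 0.0679, adjusted p = 0.00645). PCIF1 fell by 0.18 in shMETTL3 (SE 0.0596, adjusted p = 0.0335) and by 0.19 in shMETTL14 (SE 0.0600, adjusted p = 0.0457). The genes that passed against shCTR thus depended on this choice, in place of METTL5 and METTL15 giving METTL4 and PCIF1. Under this setting 3541 of all 17686 genes passed in shMETTL3 and 1693 of 17686 in shMETTL14.

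**Figure D3:**
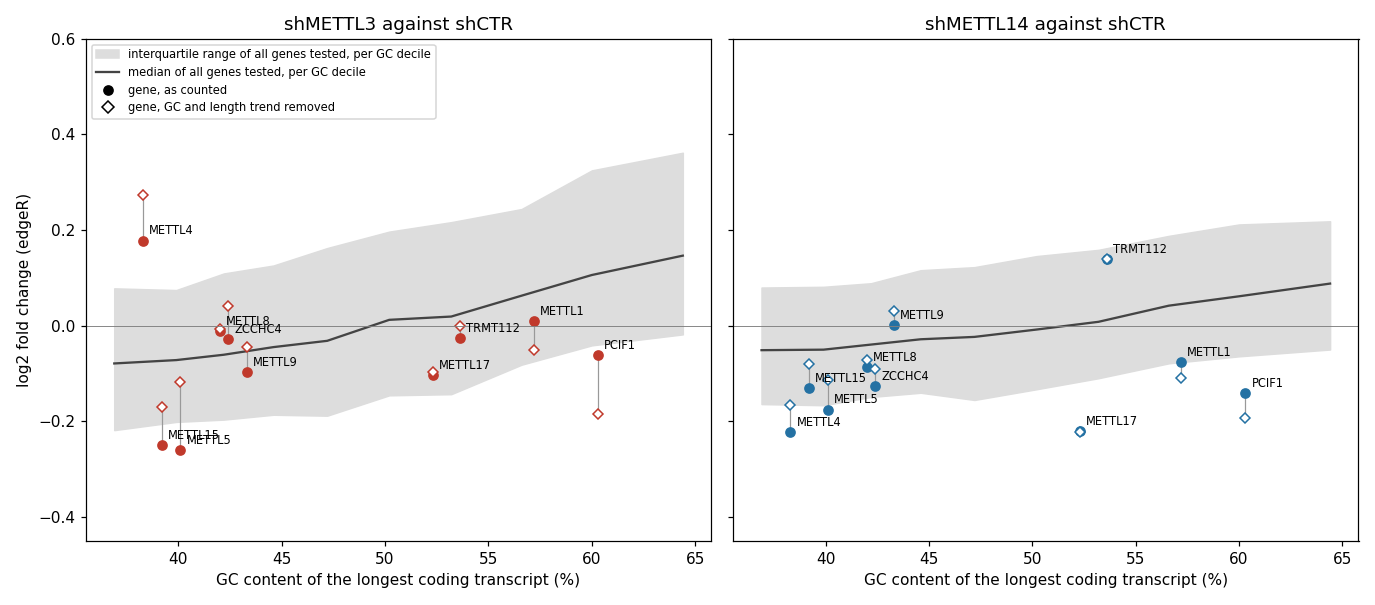
log2 fold change (vertical axis) against the GC content in percent of the longest coding transcript (horizontal axis), in shMETTL3 (left) and shMETTL14 (right) against shCTR. The line and grey band give the median and the interquartile range of all genes tested in each GC decile, filled points the 10 genes as counted, and open diamonds the same genes with the GC and length trend removed. METTL5 goes from -0.26 to -0.12 and PCIF1 from -0.06 to -0.18 in shMETTL3.

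ZCCHC4 (ENSG00000168228, chr4:25312785-25370383, plus strand), which marks the large ribosomal subunit, was at 21.6 and 18.1 CPM in shCTR, 18.89 and 20.03 in shMETTL3 and 18.2 and 18.2 in shMETTL14. The values of shCTR spanned those of both knockdowns. Its log2 fold change was -0.03 in shMETTL3 (95% interval -0.25 to 0.19, adjusted p = 0.892) and -0.13 in shMETTL14 (95% interval -0.35 to 0.10, adjusted p = 0.548). For each METTL5 read there were 0.223 and 0.186 reads of ZCCHC4 in shCTR, 0.239 and 0.241 in shMETTL3 and 0.214 and 0.209 in shMETTL14.

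TRMT112 (ENSG00000173113, chr11:64316460-64318084, minus strand), the shared activator, was at 117 and 132 CPM in shCTR, 122 and 121 in shMETTL3 and 138 and 135 in shMETTL14. Both shMETTL14 libraries lay above the other 4, while the shMETTL3 libraries lay between the shCTR libraries. The log2 fold change was -0.03 in shMETTL3 (95% interval -0.17 to 0.11, adjusted p = 0.840) and 0.14 in shMETTL14 (SE 0.0671, adjusted p = 0.242). The difference between the knockdowns, -0.17 (SE 0.0671, adjusted p = 0.123), did not pass. It passed when only the 2 knockdowns entered the fit (-0.16, adjusted p = 0.0334) and without either shCTR library (adjusted p = 0.0296 and 0.0300). Without shCTR replicate 2, TRMT112 was higher in shMETTL14 by 0.23 (adjusted p = 0.0267). Of its exons, 17.5% overlap those of ESRRA on the opposite strand. For each read of TRMT112, METTL5 had 0.830 and 0.740 reads in shCTR, 0.646 and 0.684 in shMETTL3 and 0.614 and 0.644 in shMETTL14. The ratio was thus below both shCTR values in all 4 knockdown libraries.

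The other enzymes that TRMT112 activates, together with WDR4, the partner of METTL1, numbered 7 and had been listed together. TRMT11, which makes N2-methylguanosine in transfer RNA as a complex with TRMT112, passed in both knockdowns. It was at 37.9 and 36.1 CPM in shCTR, 25.2 and 24.7 in shMETTL3 and 26.5 and 28.2 in shMETTL14. The shCTR libraries lay clear of the other 4. TRMT11 fell by 0.57 on the log2 scale in shMETTL3 (SE 0.0839, adjusted p = 1.19e-04), a decrease of 32.4%, and by 0.44 in shMETTL14 (SE 0.0832, adjusted p = 0.00252), a decrease of 26.1%. Its transcript has a GC content of 38.2%, and with the GC and length trend removed it still fell by 0.43 (adjusted p = 3.03e-04) and by 0.38 (adjusted p = 0.00194). The call in shMETTL14 was lost without shMETTL14 replicate 1 (log2 fold change -0.39, adjusted p = 0.0946). For each read of TRMT112, TRMT11 had 0.325 and 0.274 reads in shCTR, 0.206 and 0.204 in shMETTL3 and 0.191 and 0.208 in shMETTL14.

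No other gene of the 7 passed in any comparison. TRMT11 was 14.3% of the 7 in each comparison with shCTR, against 16.5% of all genes in shMETTL3 and 6.69% in shMETTL14. Between the knockdowns 0 of the 7 passed, against 12.1% of all genes. BUD23, the ribosomal RNA 7-methylguanosine enzyme, had 3053 and 3217 reads in shCTR, 3176 and 3216 in shMETTL3 and 3331 and 3198 in shMETTL14. Its log2 fold change was 0.00 in shMETTL3 (95% interval -0.13 to 0.13) and 0.04 in shMETTL14 (95% interval -0.09 to 0.18). The transfer RNA enzyme ALKBH8 was at -0.17 (adjusted p = 0.280) and -0.12 (adjusted p = 0.558), and N6AMT1, which methylates protein, at -0.15 (adjusted p = 0.230) and -0.09 (adjusted p = 0.599). THUMPD2, which acts on the U6 spliceosomal RNA, was at -0.05 and -0.03, and THUMPD3, which acts on transfer RNA, at 0.00 and 0.07.

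METTL15 (ENSG00000169519, chr11:28108248-28527041, plus strand), the methyltransferase of mitochondrial ribosomal RNA, was at 47.5 and 44.6 CPM in shCTR, 40.5 and 37.1 in shMETTL3 and 40.8 and 43.4 in shMETTL14. All 4 knockdown libraries lay below the shCTR libraries. METTL15 fell by 0.25 on the log2 scale in shMETTL3 (SE 0.0781, 95% interval -0.41 to -0.09, adjusted p = 0.0337), a decrease of 15.9%. In shMETTL14 it was at -0.13 (SE 0.0776, adjusted p = 0.368), and the difference between the knockdowns, -0.12, did not pass (adjusted p = 0.379). The call in shMETTL3 was near the threshold. It was lost with DESeq2 (adjusted p = 0.0920), with library size alone as the scale (log2 fold change -0.19, adjusted p = 0.0959), without the filter on low counts (adjusted p = 0.0748) and with only shCTR and shMETTL3 in the fit (adjusted p = 0.0614). It was also lost when any library but shCTR replicate 2 was left out. A processed pseudogene, METTL15P1, had 9 to 21 reads, and 61 bases of the METTL15 exons overlap those of KIF18A on the opposite strand.

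METTL17 (ENSG00000165792, chr14:20989770-20997035, plus strand), the mitochondrial ribosome assembly factor, was at 47.77 and 45.02 CPM in shCTR, 46.1 and 40.3 in shMETTL3 and 41.6 and 38.1 in shMETTL14. The shMETTL14 libraries lay below those of shCTR, and the shMETTL3 libraries overlapped both. Its log2 fold change of -0.22 in shMETTL14 had an unadjusted p of 0.0150 and did not pass after adjustment (SE 0.0824, adjusted p = 0.123). In shMETTL3 it was -0.10 (95% interval -0.27 to 0.07, adjusted p = 0.430). METTL17 lies 501098 bases before METTL3 on chromosome 14.

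METTL8 (ENSG00000123600, chr2:171317405-171434802, minus strand), which methylates mitochondrial transfer RNAs and holds the seed match of the METTL3 hairpin shown above, was at 33.0 and 28.8 CPM in shCTR, 29.6 and 31.8 in shMETTL3 and 29.5 and 28.8 in shMETTL14. The shCTR libraries spanned both shMETTL3 libraries. The log2 fold change was -0.01 in shMETTL3 (SE 0.0887, 95% interval -0.20 to 0.17, adjusted p = 0.956) and -0.09 in shMETTL14 (95% interval -0.27 to 0.10, adjusted p = 0.643). Of the 3 mitochondrial genes, then, only METTL15 passed, and only in shMETTL3. Whether it differed from METTL8 and METTL17 was not tested.

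METTL4 (ENSG00000101574, chr18:2537525-2571509, minus strand), the U2 RNA methyltransferase, had 836 and 737 reads in shCTR, 866 and 950 in shMETTL3 and 657 and 703 in shMETTL14. On the CPM scale these were 42.3 and 38.5, 44.1 and 47.3, and 33.4 and 35.9. The 3 groups did not overlap, with shMETTL3 above shCTR and shMETTL14 below it. METTL4 was higher in shMETTL3 than in shMETTL14 by 0.40 on the log2 scale (SE 0.0805, 95% interval 0.23 to 0.57, adjusted p = 0.00214), which is 31.9% higher. Against shCTR neither knockdown passed: the log2 fold change was 0.18 in shMETTL3 (SE 0.0794, unadjusted p = 0.0368, adjusted p = 0.136) and -0.22 in shMETTL14 (SE 0.0814, unadjusted p = 0.0132, adjusted p = 0.115). The difference between the knockdowns was 0.44 with the GC and length trend removed (adjusted p = 1.10e-04), and it lost its call without shMETTL3 replicate 2 (0.35, adjusted p = 0.0574) and without shMETTL14 replicate 1 (0.35, adjusted p = 0.0731). With library size alone as the scale METTL4 passed in shMETTL3 (0.23, adjusted p = 0.0498), and without shCTR replicate 2 it passed in shMETTL14 (-0.29, adjusted p = 0.0359). No exon of METTL4 overlaps that of another gene.

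PCIF1 (ENSG00000100982, chr20:45934628-45948023, plus strand), the cap-adjacent methyltransferase, was at 51.4 and 57.3 CPM in shCTR, 52.7 and 51.5 in shMETTL3 and 49.2 and 49.4 in shMETTL14. The shCTR libraries spanned those of shMETTL3 and lay above those of shMETTL14. As counted, neither difference passed, at -0.06 in shMETTL3 (95% interval -0.21 to 0.09, adjusted p = 0.622) and -0.14 in shMETTL14 (95% interval -0.29 to 0.01, adjusted p = 0.289). The values with the GC and length trend removed, which passed in both, are given above.

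METTL1 (ENSG00000037897, chr12:57768471-57772793, minus strand), the transfer RNA 7-methylguanosine enzyme, had the fewest reads of the 10: 199 and 194 in shCTR, 199 and 205 in shMETTL3 and 175 and 201 in shMETTL14. All 3 groups overlapped in CPM. The log2 fold change was 0.01 in shMETTL3 (95% interval -0.26 to 0.28, adjusted p = 0.973) and -0.08 in shMETTL14 (95% interval -0.35 to 0.20, adjusted p = 0.796), and these intervals leave room for changes in either direction. WDR4, its partner, had 1110 and 1083 reads in shCTR, 1161 and 1065 in shMETTL3 and 1136 and 1051 in shMETTL14, with log2 fold changes of -0.01 and -0.02. For each WDR4 read there were 0.179 METTL1 reads in both shCTR libraries, 0.171 and 0.193 in shMETTL3 and 0.154 and 0.191 in shMETTL14. Of the METTL1 exons, 19.3% overlap EEF1AKMT3 on the opposite strand and 4.08% overlap CYP27B1 on the same strand.

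METTL9 (ENSG00000197006, chr16:21597218-21657473, plus strand), the protein histidine methyltransferase, was at 108 and 105 CPM in shCTR, 102 and 96.7 in shMETTL3 and 103 and 110 in shMETTL14. Both shMETTL3 libraries lay below those of the other groups, and shMETTL14 spanned shCTR. The log2 fold change was -0.10 in shMETTL3 (95% interval -0.23 to 0.04, adjusted p = 0.339) and 0.00 in shMETTL14 (95% interval -0.14 to 0.14, adjusted p = 0.994).

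Further genes of RNA methylation were read in lists by type of RNA. Of 27 genes of transfer RNA methylation, 1 passed in shMETTL3, THADA, which was lower (log2 fold change -0.27, adjusted p = 0.0327), and 1 in shMETTL14, TRMT1L, which was higher (0.30, adjusted p = 0.0249). That is 3.70% of the list in each, against 16.5% and 6.69% of all genes. The TRMT1L call was lost in 6 of 13 alternative fits (adjusted p up to 0.291). Of 12 genes of ribosomal RNA methylation, 4 passed in shMETTL3, of which 3 were lower and 1 was higher. Those that fell were FBL, the methyltransferase of box C/D particles (-0.22, adjusted p = 0.0153), NOP2, a cytosine methyltransferase of the large subunit (-0.26, adjusted p = 0.0161), and DIMT1, which methylates adenosines of the small subunit (-0.23, adjusted p = 0.0181). MRM1, which methylates mitochondrial ribosomal RNA and was named after its value was seen, was the one that rose (0.31, adjusted p = 0.0278). In shMETTL14, 0 of these 12 passed by edgeR, against 6.69% of all genes, and 0 by DESeq2, against 763 of 17686 genes. An unadjusted p under 0.05 by edgeR was found there for 2 of the 12, against 3665 of 17686 genes. The share of the list that passed in shMETTL3 was 33.3%, against the 16.5% of all genes. DIMT1 no longer passed with the GC and length trend removed (-0.12, adjusted p = 0.112). In shMETTL3 the calls of FBL and DIMT1 were each lost in 4 of 13 alternative fits, and that of NOP2 in 3. MRM1 was not followed over these fits.

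Of 6 genes of cap and small nuclear RNA methylation, MEPCE, the enzyme that caps 7SK RNA, rose in both knockdowns, by 0.31 in shMETTL3 (adjusted p = 0.00650) and by 0.26 in shMETTL14 (adjusted p = 0.0393). It was the only gene of its list to pass, 16.7% of the list in each, against 16.5% and 6.69% of all genes. The MEPCE call in shMETTL14 was lost in 8 of 13 alternative fits. In shMETTL3 the call was lost in 1 of 13. The log2 fold change of MEPCE there ranged from 0.23 to 0.38 over the libraries left out. Over the other alternatives it ranged from 0.16 to 0.36, so its size depended on the processing. The METTL-named genes not described above numbered 20, of which 15 could be tested. This list was made by name and not by action on RNA. Only TMT1A, also called METTL7A, passed against shCTR, in shMETTL3 (-0.25, adjusted p = 0.0421). That is 6.67% of those tested, against 16.5% of all genes. In shMETTL14, 0 of the 15 passed by edgeR, against 6.69% of all genes. That share leaves little room for a lower count in so short a list. By DESeq2, 0 of the 15 passed in shMETTL14, against 763 of 17686 genes. An unadjusted p under 0.05 by edgeR was found there for 0 of the 15, against 3665 of 17686 genes. The calls of THADA and TMT1A in shMETTL3 were each lost in 9 of 13 alternative fits. Between the knockdowns, 12.1% of all genes passed. The shares there were 7.41% of the transfer RNA list, 8.33% of the ribosomal RNA list and 6.67% of the METTL-named genes tested. In the cap and small nuclear RNA list 2 of 6 passed, or 33.3%. THADA (-0.34, adjusted p = 0.0122), NOP2 (-0.26, adjusted p = 0.0182) and TMT1A (-0.37, adjusted p = 0.00467) were lower in shMETTL3 than in shMETTL14. So were both enzymes that methylate riboses of the first bases of mRNA, CMTR1 (-0.21, adjusted p = 0.0304) and CMTR2 (-0.24, adjusted p = 0.0418). The call of CMTR1 was lost in 6 of 13 alternative fits (adjusted p up to 0.251) and that of CMTR2 in 7 (up to 0.404). METTL2B was higher in shMETTL3 than in shMETTL14 (0.25, adjusted p = 0.0326), with the limit that METTL2A is a near-identical copy and the counting could divide their reads. This call was lost in 6 of 13 alternative fits (adjusted p up to 0.306).

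**Figure D4:**
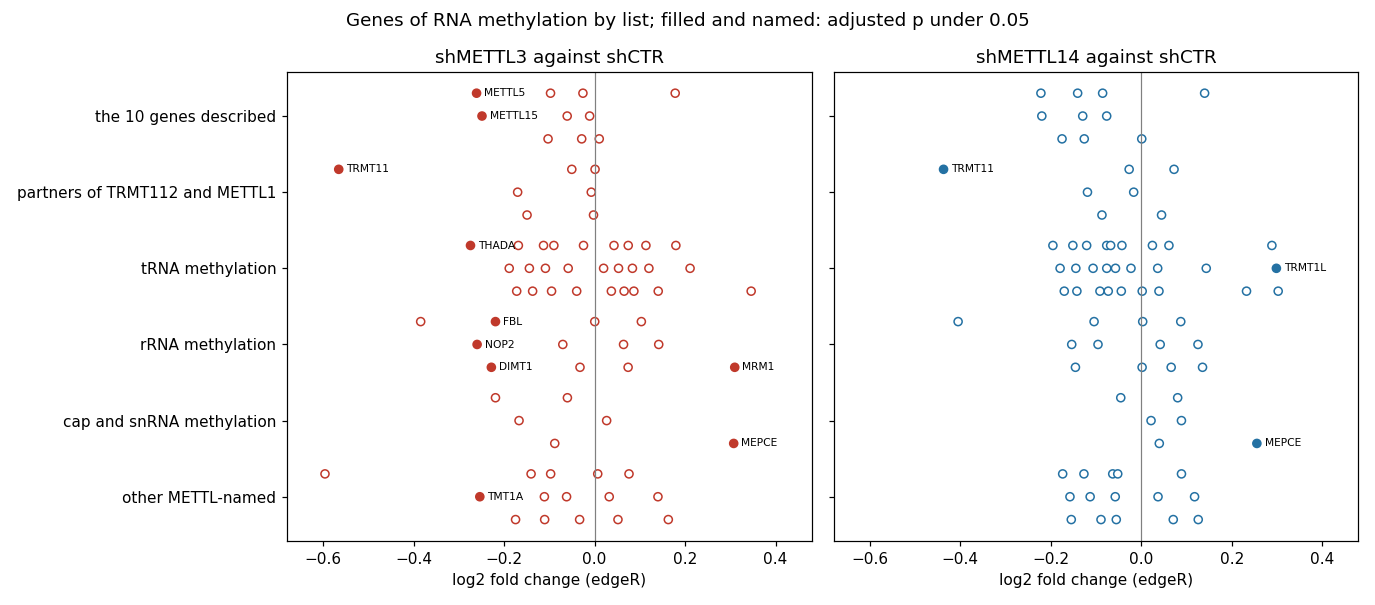
log2 fold change (horizontal axis) of the 10 genes and of each other list (rows, points staggered for clarity) in shMETTL3 (left) and shMETTL14 (right) against shCTR. Filled and named points mark an adjusted p under 0.05. The bottom row holds other METTL-named genes, which were listed by name and not by action on RNA. TRMT11 is the lowest filled point in both panels, at -0.57 and -0.44, and MEPCE is filled on the right side of both.

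The profiles of the genes that passed were compared with those of 76 other genes of these lists, as the Euclidean distance between log2 CPM values centred on each gene's mean over the 6 libraries. METTL5 lay nearest to FBL (distance 0.118) and DIMT1 (0.120), against a median distance of 0.313. METTL15 lay nearest to DIMT1 (0.0828) and N6AMT1 (0.109), with a median of 0.322. METTL4 lay nearest to METTL2B (0.185) and METTL21A (0.218), with a median of 0.503. These distances describe the 6 libraries and were not tested.

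The motif GGACT, the most usual sequence context of m6A in mRNA, was counted in the longest coding transcript of each gene, since m6A itself was not measured in these libraries. METTL5 and TRMT112 held 0 copies. METTL1 had 5 copies, or 2.42 per kb, and PCIF1 had 6, or 2.18 per kb, against a median of 0.911 per kb over all genes tested. METTL17 was at 1.72 and METTL4 at 1.11 copies per kb. METTL8 was at 0.731, METTL15 at 0.465, ZCCHC4 at 0.359 and METTL9 at 0.307 copies per kb. Whether the number of copies goes with the fold changes was not tested.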

How the data were processed

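The deposited table held raw read counts per Ensembl gene, made by the authors with HTSeq 0.6.1 on hg38 (submitters' processing notes) from oligo(dT)-selected RNA; aligner, annotation release and strand setting are not given in the sources used here. Counts were tested with edgeR 4.0.16 in R 4.3.3: TMM scaling, filterByExpr with a minimum count of 10, and a quasi-likelihood fit of all 6 libraries in 3 groups, which left 17686 genes. SE is the log2 fold change divided by the root of F. Scripts were tested on simulated data. Symbols and coordinates came from GENCODE 29 (GRCh38), with length and GC content from its longest coding transcripts (94.2% of tested genes), and promoters from RefSeq. A further 986 identifiers without an Ensembl number held 0.635 to 0.703% of reads.

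Alternatives were DESeq2 1.42.0, other scalings, no filter, only the groups compared, a replicate block, a GC and length trend fitted with mgcv 1.9.3, and each library left out. Some listed cell type markers are not reported here. The members and lists were chosen with earlier results of these data known. All 10 members, TRMT112 and METTL1 partners, METTL3 and METTL14 were named, as were up to 3 passing genes with the smallest adjusted p per list and comparison (at least 10 reads in every library, groups not overlapping) and the 2 nearest profiles of each passing member.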

Additional observations from a re-analysis of the deposited data

Results flagged for a closer look

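METTL4 was singled out by its difference between the knockdowns, so the test of that difference given here is no separate support. Between the knockdowns 12.1% of all genes passed. Both shMETTL3 libraries lay above the shCTR libraries and both shMETTL14 libraries below them. The difference between the knockdowns was 0.40 on the log2 scale and was tested directly in edgeR (adjusted p = 0.00214), while neither knockdown differed from shCTR past the threshold. Its adjusted p over 13 alternative fits ranged from 1.10e-04 to 0.0731, and the direction was the same in all 13.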

How the results depend on the processing

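Of 598 recomputed log2 fold changes of named genes, 480 kept their direction and their side of the threshold. Another 87 lost a call, 9 gained one and 22 changed sign. Values that had not passed and still did not pass are among the 480, and counts of genes are not among the 598. Over genes of the same level the median SE was 0.0821 on the log2 scale. Between the libraries of each group, chi-square averaged 2.55 to 5.30 over genes, where counting error alone gives about 1, so depth was not the only limit. The counts of genes that passed fell to 1881 in shMETTL3, 763 in shMETTL14 and 1327 between the knockdowns with DESeq2, and to 766 in shMETTL14 with no filter on low counts, where more genes were tested. Of the 10 genes, 1 passed in shMETTL3 with DESeq2, with no filter (2185 of 37080 genes) and with only the groups compared (2407 of 17248 genes). Between the knockdowns 2 of the 10 passed with only the groups compared, against 2905 of 17345 genes. In shMETTL14, 1 of the 10 passed with the GC and length trend removed, against 1693 of 17686 genes. The cause was not tested. Leaving out each library in turn gave 1102 (without shMETTL3 replicate 2) to 3569 genes (without shCTR replicate 2) in shMETTL3, 341 (without shMETTL14 replicate 1) to 1913 (without shCTR replicate 2) in shMETTL14, and 942 (without shMETTL14 replicate 1) to 2953 (without shCTR replicate 2) between the knockdowns, with 0 to 2 of the 10 genes in each comparison. Libraries with the same replicate number did not deviate together (correlations of 0.0614, 0.00511 and -0.02), and with the replicate number as a block the counts were 3264, 1459 and 2478, with METTL5, METTL15 and METTL4 passing where they had passed.

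Differences near 0 changed sign, none of them past the threshold. In shMETTL14, METTL9 was at -0.00096 with DESeq2 size factors and with DESeq2, and at -0.0033 with no filter. In shMETTL3, with library size alone METTL8 was at 0.044, ZCCHC4 at 0.027 and TRMT112 at 0.030, and with the GC and length trend removed METTL1 was at -0.051 and ZCCHC4 at 0.042. Over the libraries left out, the log2 fold change in shMETTL3 ranged from -0.11 to 0.089 for METTL8, -0.15 to 0.10 for ZCCHC4, -0.14 to 0.017 for PCIF1 and -0.11 to 0.061 for TRMT112. In shMETTL14 it ranged from -0.18 to 0.021 for METTL1, -0.18 to 0.016 for METTL8, -0.050 to 0.049 for METTL9 and -0.25 to 0.0089 for ZCCHC4, and between the knockdowns from -0.013 to 0.19 for METTL1. With library size alone as the scale, the calls of FBL, NOP2, DIMT1, THADA and TMT1A in shMETTL3 and of CMTR1 and CMTR2 between the knockdowns were lost, with adjusted p from 0.0538 to 0.113.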
